A study of Papaver somniferum with 12 samples.

Results

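A set of 150 unigenes stood higher in leaves of opium poppy (Papaver somniferum) at the seedling phase than at each of the 3 later growth phases, among which their levels were alike. A unigene is an entry of the sequence set that the study built from long reads, counted apart from its more numerous non-redundant isoforms. The members were selected on these same measurements out of 61856 unigenes, so the seedling excess itself is a description. Counts from a linear model, given below, describe it and are no support for it. Their excess was in most cases modest. The median member had 1.79 times the average of the later libraries in seedling leaves, 49 members had at least 2 times it, and 3 had at least 5 times it. No member was silent later: the lowest value of any member in a later library was 1.06 scaled RPKM, so "high only in seedling leaves" means higher there and not restricted to seedlings.

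Leaves of cultivar B1 plants grown in a field plot had been collected at 4 phases, with 3 independent samples at each and 12 RNA sequencing libraries in all. The phases were seedling, before the stem elongates, jointing, when the stem elongates, bolting, when the first bud shows, and florescence, when the first flower opens. All 12 samples were leaves of untreated plants of the same cultivar, and the sources used here do not say whether a sample was a single plant or a pool. Each phase was harvested at its own date, so phase, leaf age and season cannot be told apart.

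Opium poppy is grown for benzylisoquinoline alkaloids, the family of morphine and codeine, which accumulate in the latex of the plant. Leaves that are still growing commonly carry more transcript for cell division, ribosomes and the building of chloroplasts than leaves that have finished growing. Whether any member belongs to these classes was not analysed here. The table of expression values gives identifiers only. Compared as whole strings, 0 of the 61856 identifiers matched the RefSeq genes of assembly ASM357369v1. The paper states that functional annotation of the unigenes was deposited, but it was not among the sources used here. The members therefore have no gene name, position, function or sequence in these sources. For the same reason the labelled tissue could not be checked against leaf markers.

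Expression was deposited as RPKM, a read number relative to the length of the unigene and to the mapped reads of the library. Values were divided by a factor for each library, the median of its ratios to the geometric mean over the 43618 unigenes above 0 everywhere, and are called scaled RPKM. These factors lay between 0.830 and 0.901 for seedling, 1.11 and 1.28 for jointing, 0.844 and 0.947 for bolting, and 1.14 and 1.23 for florescence libraries. The factors of seedling and bolting libraries were thus similar, and those of jointing and florescence libraries were higher. Scaled values of jointing and florescence leaves therefore lie lower, relative to seedling leaves, than the deposited ones. The sum of deposited RPKM per library lay between 998634 and 1175900. The table holds no read counts, so the number of reads behind a single value is unknown. The paper lists sequenced bases and RNA integrity for each library, which were not used here. RNA integrity was higher in the jointing libraries than in those of the other phases, and its part in the values was not tested. These are values from whole leaves, in which fewer cells of a type and less RNA per cell cannot be told apart.

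The selection asked for a mean of 5 to 1000 deposited RPKM over the 12 libraries, which 14941 unigenes had. It asked that the lowest seedling library exceed the highest of the 9 later libraries, which held for all 150 members by choice. That also held for 8.6% of the 14941 unigenes, or 1285 of them. Of these, 728 also had jointing, bolting and florescence means within 0.5 of each other on the log2(scaled RPKM + 1) scale. They were ranked by the seedling mean minus the highest later phase mean on that scale, here called the seedling excess, and the first 150 were taken. The limit of the list fell in a continuum. The last member, PB.15386.3, had 7.57, 8.76 and 9.68 scaled RPKM in seedling libraries, against at most 7.12 in a later library, and an excess of 0.49. The first unigene outside it, PB.11568.13, had 114, 97.4 and 110.0 scaled RPKM in seedling libraries, against at most 91.2 in a later library, and an excess also of 0.49. In the plot of seedling mean against highest later mean the members have, by choice, a larger excess than the other unigenes that met the limits. They are not the upper edge of all unigenes plotted. With later phases allowed within 1, only 65 of the members were among the first 150, since unigenes with more unequal later phases ranked above the rest.

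**Figure D1:**
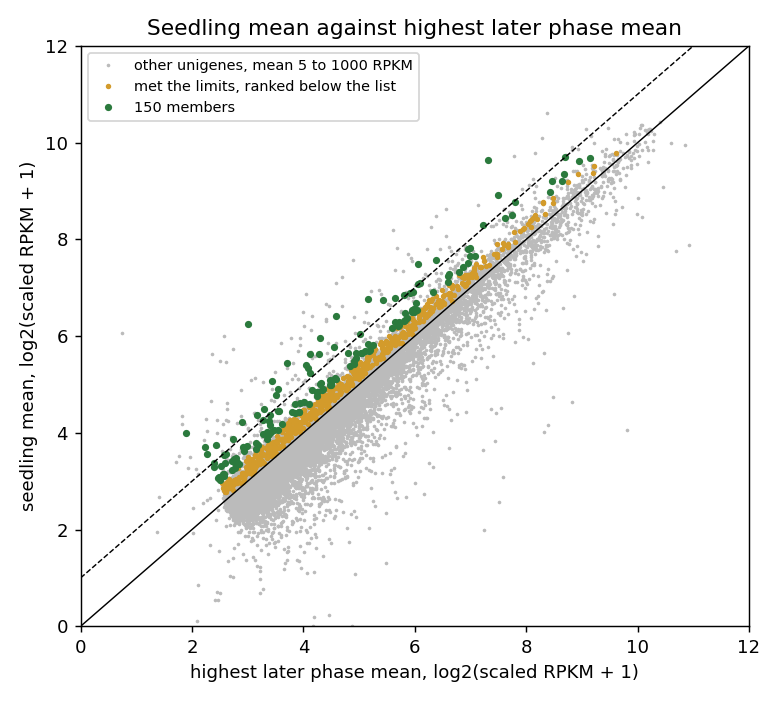
Mean log2(scaled RPKM + 1) over the 3 seedling libraries (vertical axis) against the highest of the jointing, bolting and florescence means (horizontal axis), 1 point per unigene with a mean of 5 to 1000 RPKM. Green points are the 150 members, orange points the 578 unigenes that met the limits but ranked below the list, and grey points all others. The solid line marks equal levels and the dashed line an excess of 1, which 33 members reached.

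The levels of the members spanned a wide range. Their seedling means ran between 7.17 and 843 scaled RPKM, with a median of 33.6. The median over the 150 members was 32.1, 35.6 and 35.9 scaled RPKM in seedling libraries 1 to 3. In later leaves it was 18.4, 18.9 and 14.1 in jointing, 20.7, 18.6 and 16.9 in bolting, and 17.6, 18.6 and 17.0 in florescence libraries. The later medians did not overlap the seedling ones, a separation that the selection fixes. In the deposited unit the averages of the library medians were 29.6 ± 0.709 RPKM in seedling, 20.0 ± 1.68 in jointing, 16.9 ± 0.755 in bolting and 20.8 ± 0.814 in florescence leaves (SD, n = 3 each).

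**Figure D2:**
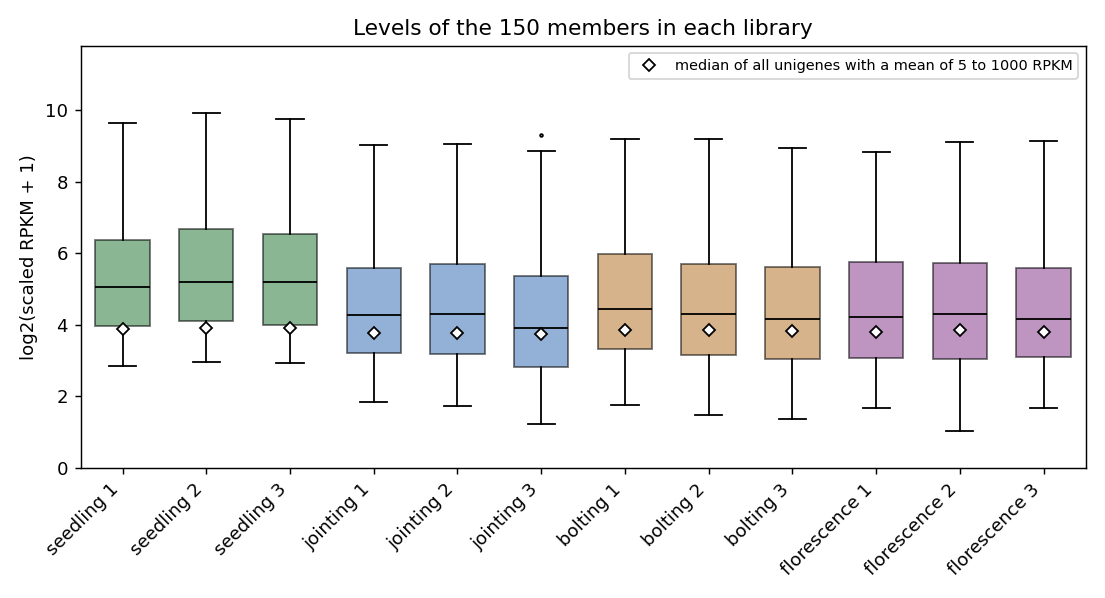
Boxes give the median and quartiles of log2(scaled RPKM + 1) over the 150 members in each of the 12 libraries, whiskers reach the last value within 1.5 times the interquartile range, and dots are values beyond it. Diamonds give the median of all unigenes with a mean of 5 to 1000 RPKM. The members' median lay at 5.05 to 5.20 in seedling libraries and at 3.92 to 4.44 in later ones, while the diamonds stayed between 3.75 and 3.92.

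Together the members made up a small part of the transcripts of each leaf. In the deposited unit, which needs no scaling for a share, they held 1.11% ± 0.00932 of the summed RPKM in seedling libraries. Their share was 0.762% ± 0.0361 in jointing, 0.601% ± 0.0254 in bolting and 0.846% ± 0.0301 in florescence libraries (SD, n = 3 each). The share thus did not follow the scaled medians among the later phases, being lowest at bolting and highest at florescence. Without the 5 members of highest seedling level the seedling share was 0.813%.

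The size of the excess was uneven, with a long upper tail. The median excess was 0.66 on the log2(scaled RPKM + 1) scale, the quartiles were 0.56 and 0.97, and the range was 0.49 to 3.26. An excess of at least 1 was reached by 33 members, of at least 1.5 by 9 and of at least 2 by 3. The room between the phases was narrower than these averages. The lowest seedling library exceeded the highest later library 1.30 times at the median, at least 1.5 times in 31 members, at least 2 times in 9, and 1.001 times in the closest case.

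PB.58457.2 had the largest excess and also the least even seedling values. It had 115, 91.8 and 40.7 scaled RPKM in seedling libraries. It had 4.78, 9.43 and 2.15 in jointing, 13.5, 3.50 and 3.02 in bolting, and 10.7, 6.30 and 5.01 in florescence libraries. Seedling library 3 was thus well below the other seedling libraries, yet 3.03 times the highest later library, the widest such separation in the list. The seedling mean was 12.7 times the mean of the 9 later libraries, the excess was 3.26, and the coefficient of variation at seedling was 46.1%, the highest of all members.

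PB.743.124 combined a large excess with a high level. It had 756, 910.2 and 729 scaled RPKM in seedling libraries. It had 145, 179 and 150.0 in jointing, 223, 112 and 78.2 in bolting, and 262, 108 and 114 in florescence libraries. Its later values varied more between libraries of a phase than between phases, with the first bolting and the first florescence library highest. The seedling mean was 5.24 times the later mean.

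PB.4484.15 was the member whose highest later library was lowest in scaled RPKM. It had 15.2, 15.1 and 14.4 scaled RPKM in seedling libraries. It had 2.57, 5.09 and 1.32 in jointing, 4.29, 1.79 and 1.56 in bolting, and 3.44, 1.06 and 2.47 in florescence libraries. Its seedling libraries were nearly equal while its later ones ran over a wide relative range, and the seedling mean was 5.67 times the later mean. These 3 were the members with an excess of at least 2.

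Among the next members in order of excess, PB.40777.1 had 75.4, 101 and 78.7 scaled RPKM in seedling libraries. It had 24.5, 29.2 and 14.0 in jointing, 24.9, 14.997 and 14.1 in bolting, and 30.9, 21.3 and 18.3 in florescence libraries, with an excess of 1.83. Its lowest seedling library was more than its highest later library, the first florescence one, by a wide margin. PB.55810.1 had 39.6, 40.9 and 46.5 scaled RPKM in seedling libraries. It had 11.98, 14.6 and 9.80 in jointing, 13.8, 7.03 and 6.38 in bolting, and 13.1, 9.03 and 8.67 in florescence libraries, with an excess of 1.73. In both unigenes the first library was the highest of its phase at bolting and at florescence.

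PB.53622.1 had 64.0, 64.2 and 56.9 scaled RPKM in seedling libraries. It had 21.2, 25.8 and 11.7 in jointing, 24.7, 11.01 and 14.6 in bolting, and 18.2, 15.03 and 16.7 in florescence libraries, with an excess of 1.68. The phase averages of its later leaves differed by less than the range within jointing or within bolting. PB.54107.2 went another way within the phases: it had 34.2, 27.2 and 36.7 scaled RPKM in seedling libraries. It had 6.56, 10.1 and 6.97 in jointing, 6.44, 10.2 and 8.12 in bolting, and 8.05, 12.3 and 9.44 in florescence libraries, with an excess of 1.63. Its second library was the highest of each later phase and the lowest at seedling.

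The remaining members among the 10 of largest excess were PB.44336.1, PB.8748.8 and PB.30318.1. PB.44336.1 had 94.9, 106 and 124 scaled RPKM in seedling libraries, and between 23.6 and 43.6 in the 9 later ones. PB.8748.8 had 44.0, 59.9 and 42.3 scaled RPKM in seedling libraries, and between 8.08 and 24.7 in the later ones. PB.30318.1 had 11.9, 10.9 and 13.5 scaled RPKM in seedling libraries, and between 1.82 and 5.89 in the later ones. In all 3 the lowest seedling library stood well clear of the highest later one, and their excesses were 1.60, 1.51 and 1.48.

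**Figure D3:**
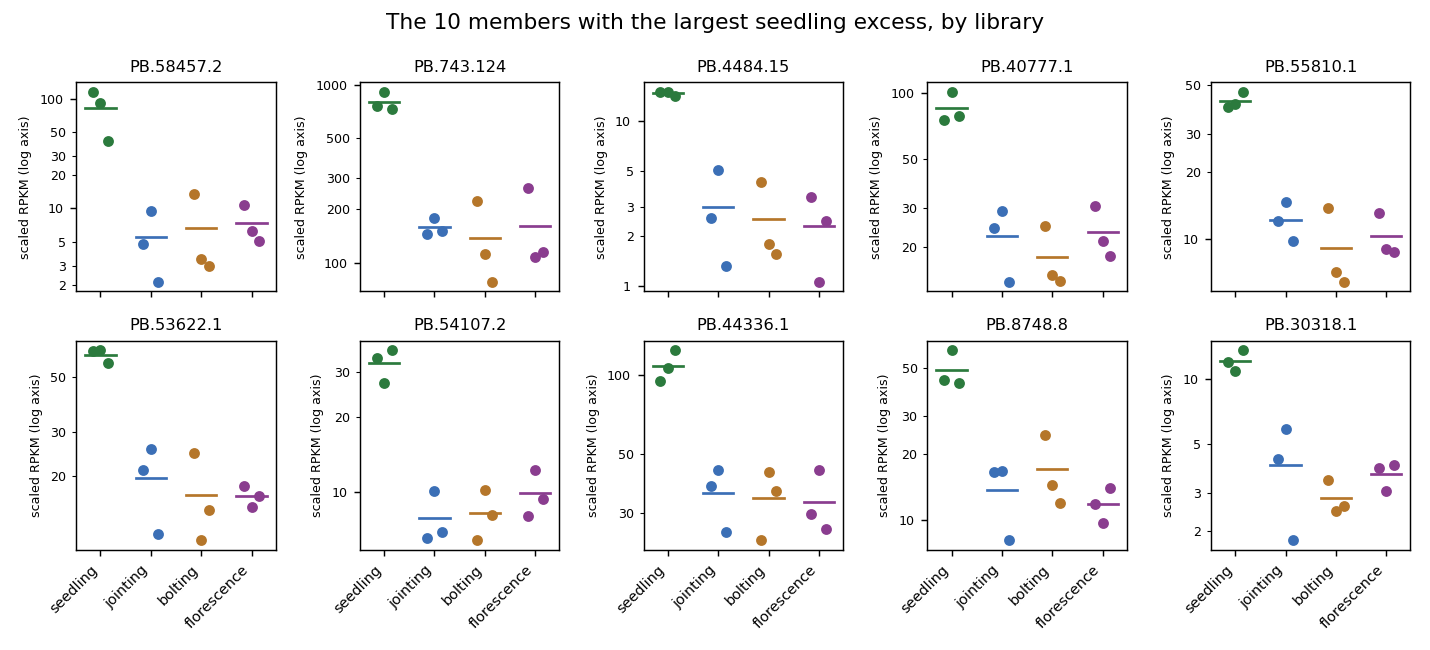
Scaled RPKM (log axis, own range in each panel) of the 10 members with the largest seedling excess, 1 point per library, with a line at the mean of the 3 libraries of a phase. All seedling points lie above all later points, as selected. Later points of a phase often spread several-fold, as for PB.58457.2 at bolting, with 13.5 in library 1 and 3.02 in library 3.

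Of the 5 members with the highest seedling means, PB.743.124 had an excess of 2.33 and the others had excesses of 0.54 to 1.01. PB.56167.2 was the most abundant at seedling, with 733, 964 and 833 scaled RPKM in seedling libraries. It had 433, 367 and 429 in jointing, 586, 331 and 370.4 in bolting, and 399, 329 and 278 in florescence libraries, with an excess of 1.01. PB.6524.39 had 805, 789 and 869.9 scaled RPKM in seedling libraries. Its later levels remained high, at 525, 536 and 637 in jointing, 305, 587 and 489 in bolting, and 452, 550.2 and 562 in florescence libraries. Its excess was 0.54 after this scaling but 0.09 in the deposited values, where its phases overlapped, and -0.0072 after quantile normalization. PB.31331.12 had a seedling mean of 785 ± 36.2 scaled RPKM, against 374 ± 25.7 in jointing, 495 ± 59.7 in bolting and 428 ± 14.3 in florescence leaves (SD, n = 3 each). PB.6665.35 had a seedling mean of 651 ± 13.9 scaled RPKM, against 411 ± 44.8 in jointing, 318 ± 78 in bolting and 352 ± 33.5 in florescence leaves (SD, n = 3 each). Both had an excess of 0.67, and PB.6665.35 overlapped between phases in the deposited values.

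The members with the most even seedling values were spread over the range of levels. PB.46639.4 had 9.21, 9.22 and 9.23 scaled RPKM in seedling libraries, a coefficient of variation of 0.125%. Its later libraries lay between 3.70 and 7.25, so its later spread was far wider than its seedling spread. PB.1947.27 had 319, 316 and 312 scaled RPKM in seedling libraries. It had 139, 154 and 151 in jointing, 161, 119.5 and 112 in bolting, and 132, 109 and 105 in florescence libraries, with an excess of 1.09. PB.16819.5 had 112, 115 and 115 scaled RPKM in seedling libraries, and 47.2, 49.7 and 46.9 in jointing libraries. At bolting and florescence its first library was the highest, with 76.2 against 46.7 and 46.6, and with 61.5 against 44.5 and 44.1. PB.7526.8 averaged 102 ± 0.615 and PB.33458.1 averaged 27.7 ± 0.353 scaled RPKM at seedling (SD, n = 3 each), with excesses of 0.66 and 0.60.

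At the low end, the members with the lowest later maximum after PB.4484.15 were PB.50330.1, PB.16119.3, PB.14437.5 and PB.43985.4. PB.50330.1 averaged 12.6 ± 2.23 scaled RPKM in seedling leaves, 3.23 ± 0.756 in jointing, 4.48 ± 1.01 in bolting and 3.72 ± 1.2 in florescence leaves (SD, n = 3 each), with an excess of 1.32. The others had seedling means of 7.84, 7.89 and 7.45 scaled RPKM, and excesses of 0.56 to 0.60. Even among these the lowest later value was 2.36 scaled RPKM, that of PB.50330.1 in jointing library 3. Over the whole list, all 150 members had at least 1 scaled RPKM in each of the 9 later libraries, 117 had at least 5, and 66 had at least 15.

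The later leaves were set against seedling leaves with limma, a linear model with a shared estimate of spread, over the 31242 unigenes whose 12-library mean reached 1 RPKM. The selection used these contrasts, so the counts describe the members and support nothing. At jointing, 59 of the 150 members passed an adjusted p under 0.05 with a difference of at least 1 downward, beside 3.8% of all unigenes tested. At bolting 37 members passed, beside 1.05%, and at florescence 52 passed, beside 5.61%. With no demand on the size, 141 members passed at jointing, beside 14.7%, 107 passed at bolting, beside 3.13%, and 140 passed at florescence, beside 17.6%. The demand of at least 1 thus removed most of the members, whose median difference was -0.94 for jointing minus seedling, -0.75 for bolting and -0.85 for florescence. All 3 contrasts share the seedling libraries.

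The bolting count depended on single libraries, with 19 members passing without bolting library 3, beside 0.466% of all unigenes tested, and 23 without seedling library 2, beside 0.477%. The share of all unigenes fell along with the members' count. The jointing and florescence counts depended on the scaling. On the deposited values 20 members passed at jointing, beside 1.64% of all unigenes tested, 29 at bolting, beside 0.861%, and 19 at florescence, beside 3%. These shares too were below those after scaling.

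The deposited values were therefore examined without scaling. On them, 89 of the 150 members kept every seedling library above all 9 later libraries, beside 2.67% of the 14941 unigenes. Every seedling library exceeded every jointing library in 111 members, beside 13.1% of these unigenes, every bolting library in 149, beside 17.2%, and every florescence library in 109, beside 14.9%. Bolting was the phase with the most such unigenes both among members and among all. The seedling mean was above the jointing, the bolting and the florescence mean in all 150 members. The members were chosen on these same libraries, and the share of all unigenes with this order was not computed. The members' median difference as deposited was -0.52 for jointing minus seedling, -0.67 for bolting and -0.43 for florescence, beside 0.34, 0.05 and 0.33 over all tested unigenes. After scaling, the same medians over all tested unigenes were 0.00, -0.01 and -0.01. All limits of the selection were still met by 69 of the 150 members on the deposited values, and by 40 after scaling to equal library totals, an alternative chosen after seeing the data. Over all unigenes 220 and 165 met them in these settings, against 728 in the selection used.

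Abundant unigenes as a whole lay lower in later leaves after scaling, which bears on the abundant members. Among unigenes with a 12-library mean of 5 to 15 RPKM, the median of jointing minus seedling was -0.93 in the 58 members and -0.03 in all 7932. Among those with a mean of 200 to 1000 RPKM it was -1.04 in the 12 members and -0.49 in all 638. At florescence the corresponding medians were -0.86 in members and 0.00 in all unigenes of the low class, and -0.90 in members and -0.59 in all unigenes of the high class. At bolting they were -0.75 in members and -0.01 in all of the low class, and -0.86 in members and -0.20 in all of the high class. The members' differences were thus similar at every level, as the selection on the excess largely fixes, while the general difference widened with the level. The high class held 1.88% members and the low class 0.731%. The part of this shift in the choice of the abundant members was not tested.

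**Figure D4:**
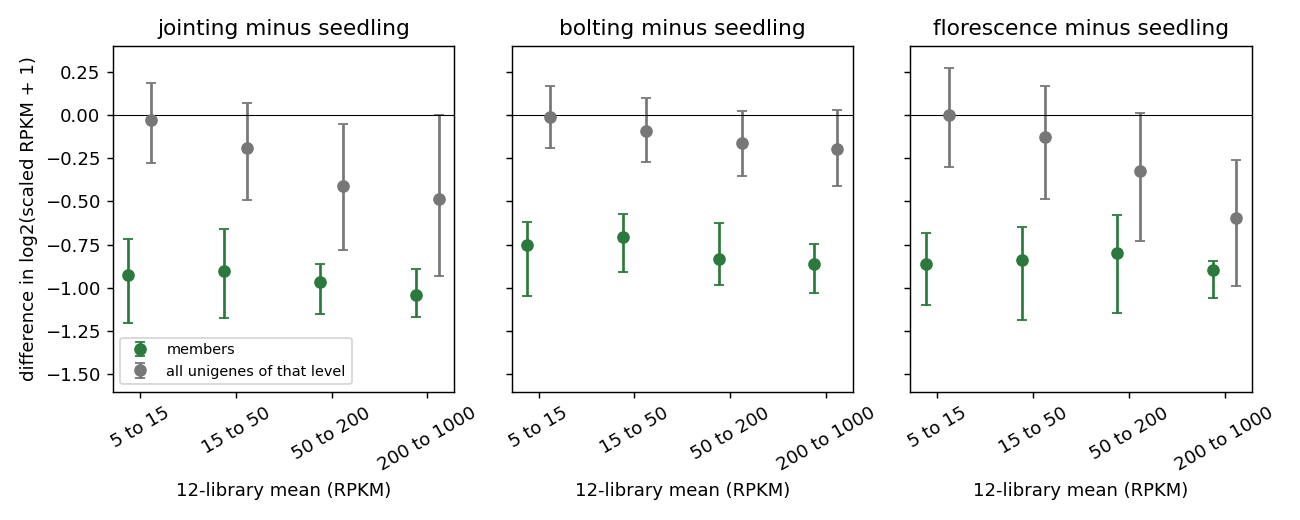
Difference in log2(scaled RPKM + 1) between each later phase and seedling (vertical axis) by 12-library mean RPKM (horizontal axis), with points at the median and bars between the quartiles. Green stands for members and grey for all unigenes of that level. The green medians stay between -1.04 and -0.71 in every class, while the grey medians run down to -0.49 for jointing, -0.20 for bolting and -0.59 for florescence. Members were selected on these differences.

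Measurements of single libraries that the choice had not used came from leaving out a library. The rule was applied to 11 libraries, the first 150 unigenes were taken again, and the library left out was then read. Seedling library 1 exceeded all 9 later libraries in 139 of 150 unigenes so chosen, seedling library 2 in 141, and seedling library 3 in 141, which is 421 of 450. The same held for 12.4%, 18.5% and 19.2% of all unigenes of suitable level. In the library left out the median excess was 0.54, 0.70 and 0.65, beside 0.70, 0.62 and 0.66 in the pair of seedling libraries used for the choice. The left-out seedling library thus stood above the later leaves by a like size, and least so for seedling library 1. Only the seedling side of this comparison was unused, since the later libraries had served in the choice. These readings concern libraries of the same phase and harvest, so they describe the spread between samples only. The later libraries were shared by all 3 readings.

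Leaving out a later library gave similar counts with an exception. The seedling libraries it was compared with had been used for the choice, as had the other libraries of its phase. The library left out lay below every seedling library in 148, 149 and 150 of the chosen unigenes for jointing libraries 1 to 3, and in 146, 148 and 149 for florescence libraries 1 to 3. It did so in 149 and 148 for bolting libraries 2 and 3, but in 122 of 150 for bolting library 1. The background was 40.7% for bolting library 1 and between 41.7% and 52.2% for the others. Of the 150 unigenes chosen without bolting library 1, 92 were members, against 104 to 137 when any other library was left out. Bolting library 1 therefore decided more of the list than any other single library.

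**Figure D5:**
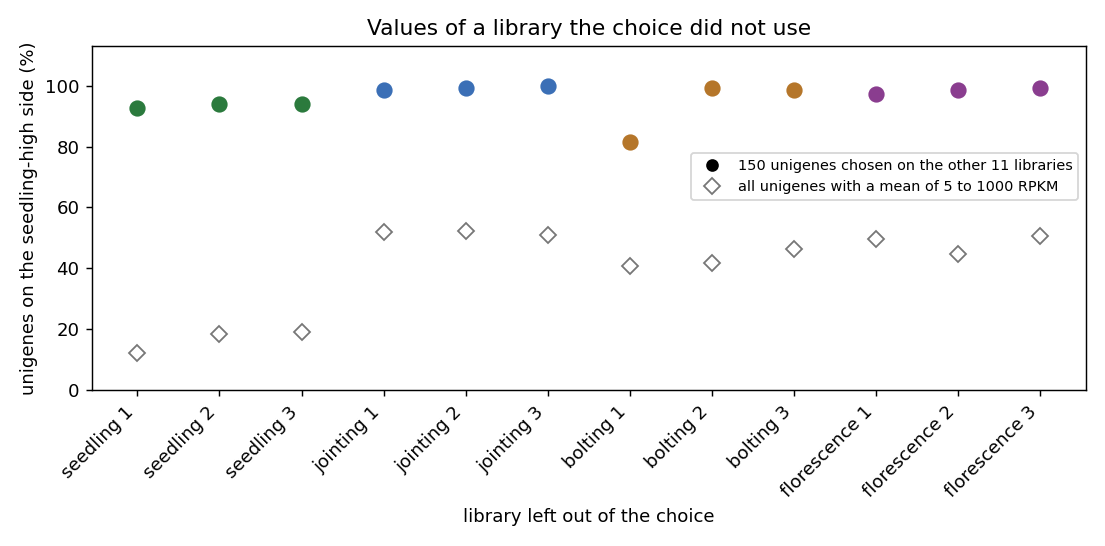
Share of unigenes (vertical axis, percent) on the seedling-high side in a library that the choice did not use (horizontal axis). For a seedling library this means above all 9 later libraries, and for a later library below all 3 seedling libraries. The libraries compared with had been used for the choice. Filled points are the 150 unigenes chosen on the other 11 libraries, between 81.3% and 100% with the lowest for bolting library 1, and open diamonds are all unigenes with a mean of 5 to 1000 RPKM over those 11 libraries.

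Within the later phases the members were alike by selection, with a median spread of 0.30 between the highest and the lowest later phase mean and a range of 0.05 to 0.50. The order of the phases inside that limit was not evenly divided. Bolting was the highest later phase in 71 members, or 47.3%, florescence in 43, or 28.7%, and jointing in 36, or 24%. For comparison, 7398 unigenes met the same limits on mean level and later phases. Of these, bolting was highest in 33.4%, florescence in 38.1% and jointing in 28.5%. Jointing was the lowest later phase in 76 members, or 50.7%, beside 39.9% of these unigenes.

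Those orders went with 2 libraries. Bolting library 1 was the highest of the 9 later libraries in 59 members, or 39.3%, beside 16.2% of the 7398 unigenes. Jointing library 3 was the lowest of the 9 in 74 members, or 49.3%, beside 20.6%. Both held together, in the sense that bolting library 1 was the highest of bolting and jointing library 3 the lowest of jointing, in 74 members, or 49.3%, beside 17.4%. The opposite arrangement was found in 10 members, or 6.67%, beside 22.3%. Of the 10 members with the largest excess all but PB.54107.2 showed at least a part of this arrangement. Each part alone was common: bolting library 1 was the highest of bolting in 61.3% of members, beside 37.9% of the 7398. Jointing library 3 was the lowest of jointing in 70%, beside 34.1%. Jointing library 3 had the highest scale factor, 1.28, and bolting library 1 the lowest of the later libraries, 0.844. The part of these libraries or factors in the order of the phases was not tested.

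The spread between libraries of a phase was larger for members than for unigenes in general, in a comparison not matched for level. The members' median level was above that of the 14941 unigenes in each library. The median SD of log2(scaled RPKM + 1) was 0.24 in members and 0.19 in all 14941 unigenes at jointing, and 0.24 in members and 0.15 in all at bolting. At seedling it was 0.14 in members and 0.12 in all, and at florescence 0.16 in members and 0.13 in all. Among the seedling libraries, library 1 was the lowest in 91 members, or 60.7%, beside 43.8% of the 14941. Library 2 was the highest in 75 members, or 50%, beside 39.8%, and library 3 in 54, or 36%, beside 35.0%. The coefficient of variation of scaled RPKM at seedling had a median of 10.2% over members, beside 8.78% over all.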

How the data were processed

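Leaf RNA was sequenced with paired ends, and the authors mapped reads with HISAT2 2.05 to unigenes built from PacBio Sequel reads (by way of ICE, Arrow, LoRDEC and CD-HIT) and estimated expression with RSEM. The deposited values are RPKM per unigene and library, to at most 2 decimals. The methods name FPKM, and no further normalization is given in the sources used here. Reads of near-identical unigenes are divided by estimation, so such values are uncertain. The 12 columns were matched to samples by the library codes in the labels, with 0 left unmatched.

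Values were scaled by the median of ratios in Python 3.11.15 and compared on log2(scaled RPKM + 1), which understates changes at low values. limma 3.58.1 in R 4.3.3, with a mean-variance trend and phase as the only factor, was fitted on all 12 libraries and 31242 unigenes, with Benjamini-Hochberg adjustment over all of them, and was tested on simulated data. The members and lists were chosen with earlier results of these data known. Named unigenes are the 10 with the largest excess, 5 each with the highest seedling mean, the smallest seedling variation and the lowest later maximum, and those at the limit of the list. Other unigenes of the members' loci were to be described, but every identifier has its own locus number, so there were none. Alternatives were other scalings, pseudocounts, filters, thresholds and limits, and leaving out each library.

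Replicate numbers were checked as pairs by the correlation of deviations from phase means. Same-numbered florescence and seedling libraries correlated at 0.37, 0.25 and 0.28, above the limit of 0.1 for pairing in 3 of 3 pairs. The labels do not state a pairing. Libraries of different number were not compared, so these values cannot show one. The reported fits hold no block. With it 52 members passed at florescence, beside 5.65% of all unigenes tested, and without it also 52, beside 5.61%. In every other comparison at least 1 pair was at or below 0.1, so the libraries were taken to share only a number: bolting and seedling libraries correlated at 0.16, 0.14 and -0.05, florescence and bolting libraries at 0.43, 0.46 and 0.08, and pairs with a jointing library at -0.63 to 0.09.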

Additional observations from a re-analysis of the deposited data

How the results depend on the processing

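Of 97 alternative values of counts and shares, 74 stayed within 1.5 times or 1 SD of the reported one. Members passing at jointing numbered 59, and 20 on deposited values, 31 after quantile normalization, 18 after scaling to equal totals, 3 at a difference of at least 2 and 141 at any size. In that order the shares of all unigenes tested were 3.8%, 1.64%, 2.47%, 1.53%, 0.522% and 14.7%. At bolting they numbered 37, and 19 at an adjusted p under 0.01, 5 at a difference of at least 2 and 107 at any size. The shares of all were 1.05%, 0.381%, 0.314% and 3.13%. At florescence they numbered 52, and 19 on deposited values, 16 after scaling to equal totals, 3 at a difference of at least 2 and 140 at any size. The shares of all were 5.61%, 3%, 2.6%, 1.25% and 17.6%. After scaling to equal totals 17 members had a higher mean at florescence than at seedling. Leaving out single libraries gave 41 to 74 members for jointing, 19 to 40 for bolting and 46 to 59 for florescence. The shares of all unigenes tested then ran over 2.21% to 4.72%, 0.466% to 1.34% and 5.03% to 5.72%.

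With the replicate number as a block on all 12 libraries, 60, 37 and 52 members passed at jointing, bolting and florescence. Of all unigenes tested 3.81%, 1.03% and 5.65% passed. On the 6 libraries of a comparison the block gave 37 at jointing, against 54 without it, 23 at bolting, against 35 without it, and 52 at florescence with and without it. Of all unigenes tested the block gave 1.92% at jointing, against 3.66% without it, and 0.612% at bolting, against 0.997%. At florescence it gave 5.8%, against 5.63% without it.

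Of the 150 members, the rule again took 61 on deposited values, 39 with equal totals, 103 after quantile normalization, 77 with means of 1 to 1000 RPKM, 51 with later phases within 0.25 and 65 within 1. Leaving out single libraries kept 92 to 137, with 92 without bolting library 1. The seedling share was 0.813% without the 5 highest members. The count of 421 of 450 left-out seedling readings was 392 on deposited values and 417 with a pseudocount of 0.1. For the 23 named members, 271 of 345 alternative values of the excess lay within 1 SD, 73 moved with the same sign, and 1 changed sign: PB.6524.39 was at -0.0072 after quantile normalization. Equal totals, differences of any size and the block on 6 libraries were chosen after seeing the data. The alternatives for other unigenes of the members' loci were not run, since there were none. The cause of these changes was not tested. Without counts, the precision of low values could not be given.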
